A study of Mus musculus with 8 samples.

Results

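Kelch-like ubiquitin adaptor genes are followed here in Kupffer cells (macrophages that live in the liver) 2 h after surgery. In caecal ligation and puncture (CLP), used to model sepsis, gut bacteria leak into the abdomen, and Sham mice had the sham operation. The genes were chosen by their mouse symbol (Klhl, Kbtbd, or Klhdc with a number) and by at least 10 counts pooled over the 8 libraries. Of 55414 rows of the count table, 56 had such a symbol and 48 reached the count. Klhl14, with 12 pooled counts, was the member nearest the limit, and Kbtbd13, with 7, was the nearest gene outside it. The pooled count is the only measured value in that rule, but the family itself was chosen with earlier results of these data known.

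The CLP group and the Sham group held 4 libraries each, all from wild-type C57BL/6J mice on chow, with cells isolated by fluorescence-activated sorting. CLP and Sham mice thus shared genotype, housing and the time of 2 h after surgery, and differed in the operation. The sources used here give neither the sort gate nor the age and sex of the mice. Nothing in the labels states that libraries of a group stem from different mice, and the p-values therefore measure the spread between these samples, which may be technical.

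Kelch adaptors are the interchangeable part of a class of ubiquitin ligases. In a typical KLHL or KBTBD protein, a BTB domain holds the scaffold cullin-3 (CUL3) and a propeller of kelch repeats holds the protein to be marked, so the adaptor decides what the ligase acts on. The cullin is switched on by attachment of the small protein NEDD8. KLHDC proteins carry kelch repeats without a BTB domain, and several of them serve cullin-2 (CUL2) through elongins B and C. The best known member of the wider family in macrophages is KEAP1, which keeps the oxidative stress factor NRF2 low.

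Libraries held 23311897 to 28724875 counts over genes. Values below are CPM (counts scaled to a common library size) after normalization by trimmed mean of M-values (TMM), and 14655 genes passed the filter on low counts and were tested with edgeR's quasi-likelihood test at an adjusted p of 0.05. On the first principal component (76.7% of the variance) CLP replicate 1 lay at -45.2, and the other CLP libraries at -82.3 to -78.2. The Sham libraries lay at 59.4 to 82.9 there. On the second principal component (9.99% of the variance) CLP replicate 1 also lay away from its group. Kupffer cell markers were present in every library, with a summed level of 29376 to 37123 CPM over 10 of 10 markers in CLP and 22617 to 29528 CPM in Sham. Hepatocyte markers gave 3639 to 5098 CPM in CLP and 2789 to 3737 CPM in Sham, with 2 of 8 tested higher and 0 lower. Endothelial markers gave 2231 to 2762 CPM in CLP and 1551 to 1965 CPM in Sham, with 3 of 7 higher and 0 lower. The summed neutrophil markers stood at 239 to 581 CPM in CLP and 101 to 139 CPM in Sham, with 9 of 9 tested higher. Most of the Sham sum came from Csf3r and Mmp9, with means of 99.1 and 18.0 CPM, against 246 and 32.6 CPM in CLP. S100a8 and S100a9 averaged 51.9 and 62.2 CPM in CLP, against 1.23 and 1.32 CPM in Sham. Platelet markers stood at 119 to 193 CPM in CLP and 15.2 to 28.0 CPM in Sham, with 6 of 6 tested higher. Ly6g and Camp, defining neutrophil genes, had no count in Sham, and the platelet gene Gp1bb had none in any library. The part of these cells in the values below was not tested. In such bulk samples, fewer cells of a type and less RNA per cell cannot be told apart.

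Most kelch adaptor transcripts were lower after CLP. Of the 48 members, 40 passed the filter, and 28 of these fell while 4 rose, Kbtbd2, Kbtbd11, Klhl4 and Klhdc4 (edgeR, adjusted p under 0.05). Over all genes tested, 29.5% fell and 24.9% rose (54.3% changed in either direction), so the share of fallers among the members tested, 70.0%, stood above the background and the share of risers, 10.0%, below it. At least 2-fold changes were seen downward in 17 members and upward in 2, against 15.9% and 12.8% of all genes. By name, 19 of 26 Klhl genes fell and 1 rose, 5 of 7 Kbtbd genes fell and 2 rose, and 4 of 7 Klhdc genes fell and 1 rose. The median log2 fold change of the members tested was -0.77, with a middle range of -1.59 to -0.37, and that of all genes tested was -0.04. The members were chosen with earlier results of these data known, so these counts describe the family and are no independent test of it.

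A member that is low in CLP can pass the filter through its Sham libraries alone. The filter level, 0.379 CPM of total counts, was reached in all 8 libraries by 32 of the 40 members. Of those, 24 fell and 2 rose, with a median of -0.77, while of the 12555 genes of that kind 3640 fell and 3252 rose. At least 2-fold changes were downward in 13 of those 32 members and upward in 0, against 1658 and 1489 of the 12555 genes. In 32 of the 40 members the ranges of CLP and Sham were separate, 28 of them lower and 4 higher in CLP, against 27.3% and 22.1% of all genes (49.5% in either direction). Scaling by total counts shifted the median of all genes to -0.60 and that of the members to -1.33. With total counts 31 members fell and 1, Kbtbd11, rose, against 56.6% and 11.7% of all genes, and over all genes 17.1% of calls were upward in place of 45.8%. Without CLP replicate 1, 29 members fell and 5 rose of 40 tested, against 33.1% and 28.0% of all genes.

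**Figure D1:**
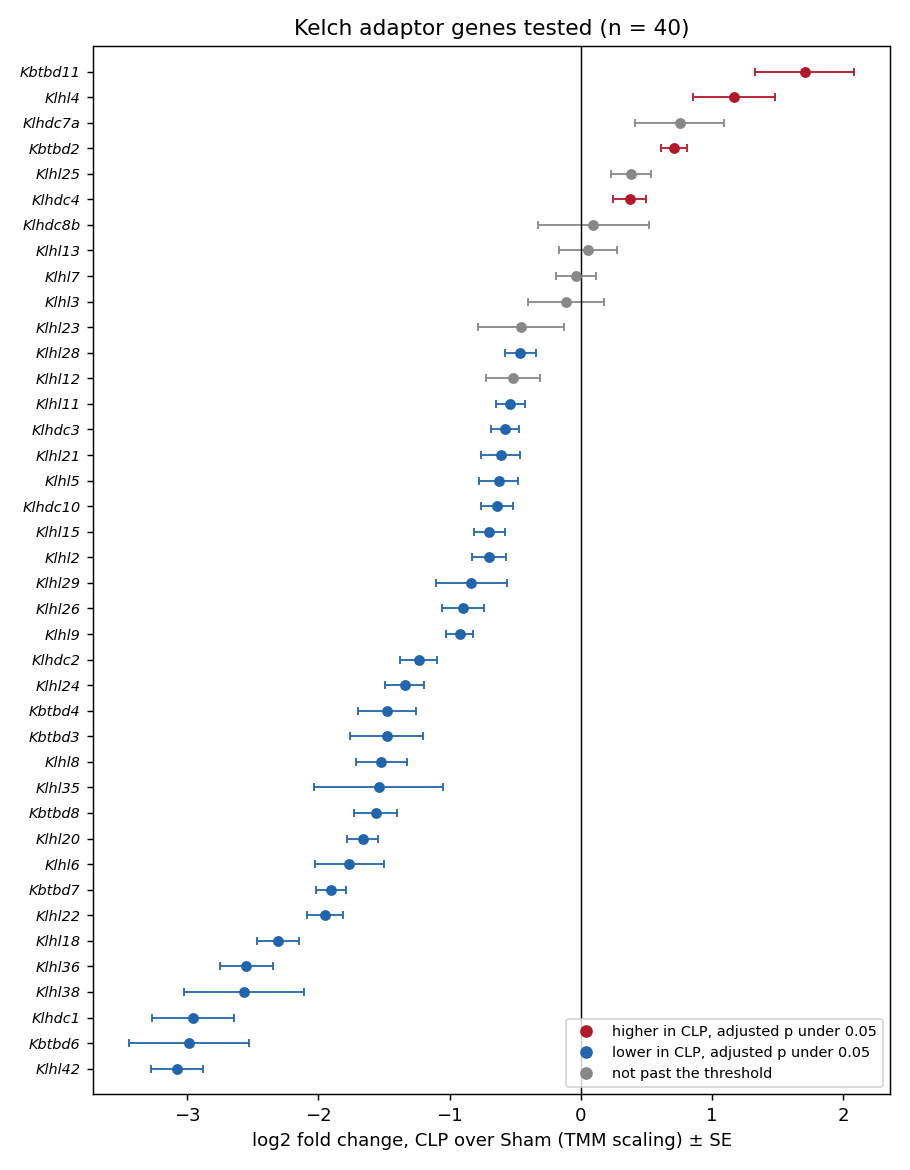
Log2 fold change of each of the 40 kelch adaptor genes tested (horizontal axis, CLP over Sham, TMM scaling; bars are SE; n = 4 libraries a group), in order of size. The 28 blue genes fell and the 4 red genes rose at an edgeR adjusted p under 0.05, and the extremes are Klhl42 at -3.08 and Kbtbd11 at 1.71.

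**Figure D2:**
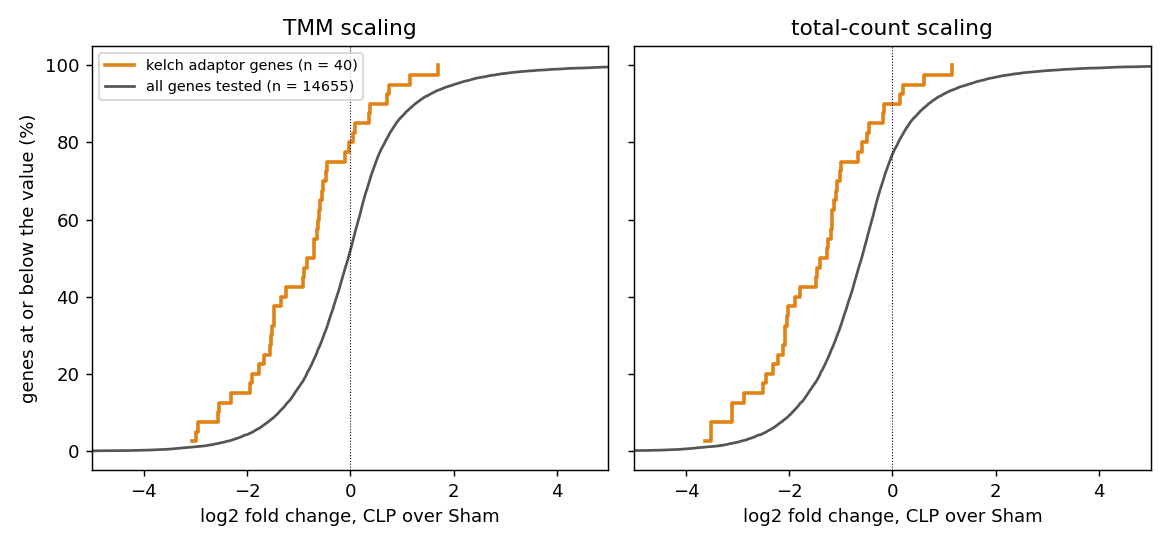
Share of genes (vertical axis, percent) at or below each log2 fold change of CLP over Sham (horizontal axis), for the 40 kelch adaptor genes and for all 14655 genes tested, under TMM scaling and under total-count scaling. The kelch curve lies to the left of the curve of all genes over most of both panels, with medians of -0.77 and -0.04 under TMM and -1.33 and -0.60 under total counts.

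The summed level of the 48 members was 695, 713, 736 and 706 CPM in the CLP libraries, against 1182, 1326, 1130 and 1317 CPM in the Sham libraries. The CLP sums lay close together and none reached a Sham sum. Klhl9 and Klhl24 gave much of this total, 36.7% to 41.4% of the members' counts in CLP and 45.8% to 50.3% in Sham. Kbtbd2 made up 14.4% to 17.1% of them in CLP and 5.15% to 5.70% in Sham. Per kb of exon, which allows genes to be set beside each other, Klhl9 was the most abundant member, at 40.0 CPM per kb in CLP and 75.9 CPM per kb in Sham. Next by level in Sham came Klhl24 (10.9 CPM per kb in CLP and 27.7 in Sham), Klhdc3 (12.8 in CLP and 19.1 in Sham) and Kbtbd2 (27.0 in CLP and 16.5 in Sham), so that Kbtbd2 took place 2 in CLP and place 4 in Sham. Klhl6 took place 13 in CLP and place 5 in Sham.

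**Figure D3:**
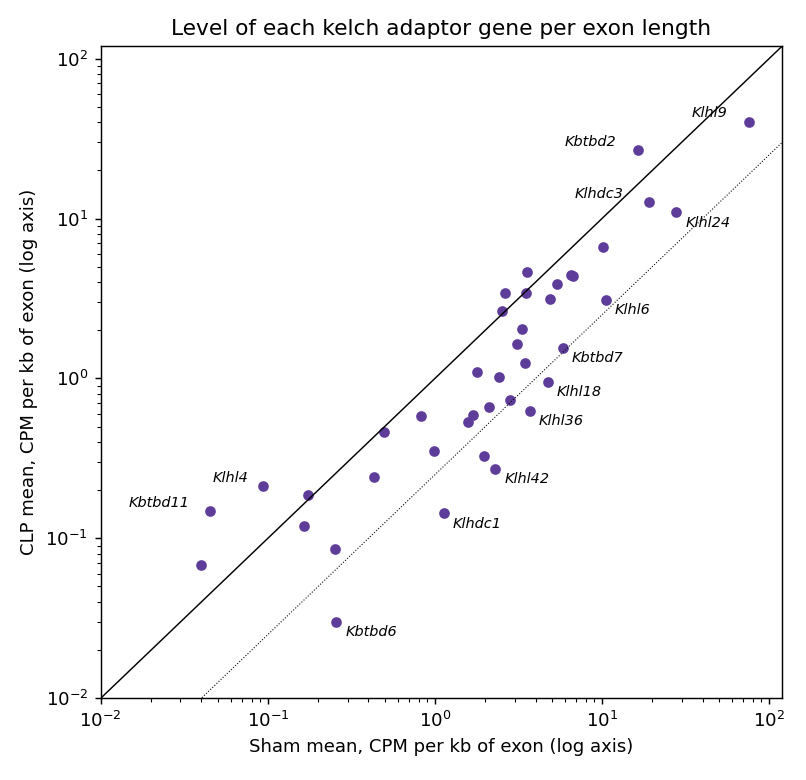
Mean level of each of the 40 members tested in CLP (vertical axis) against Sham (horizontal axis), in CPM per kb of exon on log axes; n = 4 libraries a group. The solid line marks equal levels and the dotted line a level 4 times lower in CLP; Klhl9 is the highest point, and Kbtbd2, Klhl4 and Kbtbd11 are among the few above the solid line.

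The 250 bases before the annotated start are shown for 4 members, with log2 fold changes from -2.55 (Klhl36) to 0.71 (Kbtbd2). The extremes of the family, Klhl42 at -3.08 and Kbtbd11 at 1.71, are not among them. Klhl18 and Klhl36 are steep fallers, Klhl9 the most abundant faller, and Kbtbd2 the most abundant riser. The sequences are RefSeq's (GRCm38.p6), printed 5′ to 3′ on the gene's strand, and capitals mark matches on either strand to the letters of 12 known factor motifs.
Klhl18 (chr9:110476695-110476944, minus strand): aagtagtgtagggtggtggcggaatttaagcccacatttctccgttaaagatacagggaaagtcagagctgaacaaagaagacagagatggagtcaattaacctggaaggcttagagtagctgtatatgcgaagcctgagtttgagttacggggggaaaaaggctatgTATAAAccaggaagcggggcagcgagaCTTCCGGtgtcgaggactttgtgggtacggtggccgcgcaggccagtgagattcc
Klhl36 (chr8:119862055-119862304, plus strand): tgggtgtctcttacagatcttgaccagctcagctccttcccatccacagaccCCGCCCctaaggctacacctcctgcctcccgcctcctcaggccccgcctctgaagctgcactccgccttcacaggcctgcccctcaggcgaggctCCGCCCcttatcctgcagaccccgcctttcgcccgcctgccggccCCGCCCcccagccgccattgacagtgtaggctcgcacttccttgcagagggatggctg
Klhl9 (chr4:88722509-88722758, minus strand): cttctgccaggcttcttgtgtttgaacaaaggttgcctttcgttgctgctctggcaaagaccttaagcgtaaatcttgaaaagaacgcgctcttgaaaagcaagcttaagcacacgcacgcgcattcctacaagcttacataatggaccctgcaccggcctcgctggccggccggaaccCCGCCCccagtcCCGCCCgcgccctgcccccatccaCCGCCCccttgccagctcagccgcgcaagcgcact
Kbtbd2 (chr6:56797214-56797463, minus strand): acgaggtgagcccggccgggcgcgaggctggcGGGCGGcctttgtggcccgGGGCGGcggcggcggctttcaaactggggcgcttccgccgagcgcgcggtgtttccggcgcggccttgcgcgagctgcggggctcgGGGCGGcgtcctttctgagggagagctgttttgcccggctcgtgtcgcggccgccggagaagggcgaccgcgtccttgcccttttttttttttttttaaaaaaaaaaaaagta
In Klhl18 the capitals are a TATA box (TATAAA) and the core of ETS factor sites (CCGGAAG, here on the other strand), and in the other three they are SP1 GC boxes (GGGCGG on either strand). The riser Kbtbd2 and the fallers Klhl36 and Klhl9 thus hold the same GC box letters.

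The members tested can also be described by features that their names did not use. Their median exon length was 4390 bases against 4028 for all genes tested, their median GC content 47.8% against 49.3%, and their median level 9.33 CPM against 12.5 CPM. Over the 40 members the Spearman correlation of the log2 fold change was 0.27 with exon length, 0.01 with GC content and 0.02 with mean level, and over all genes it was -0.00, -0.07 and 0.23 in that order. These genes share their libraries, so the correlations are descriptions.

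A promoter was found for 39 of the 48 members. GC box letters stood in 24 of these 39, or 61.5%, and in 35.4% of all 27025 genes of the table, and ETS letters in 10 of 39, or 25.6%, and in 7.83% of all genes. Counted by promoter, the shares were 55.8% of 52 for the GC box and 23.1% for ETS, against 32.7% and 6.91% of all 32851 promoters. The member promoters were also richer in CpG, with a median of 13.5 CpG in 250 bases against 6 for all, and a median GC content of 58.6% against 52.4%, and the part of this in the motif shares was not tested. NF-kB consensus letters were found in 6 of 39 (15.4%, against 8.23% of all genes), the antioxidant response element TGACNNNGC in 6 of 39 (15.4% against 11.5%), the E-box CACGTG in 3 (7.69% against 6.86%), and AP-1 letters TGANTCA in 2 (5.13% against 7.82%). CRE letters (TGACGTCA) and the NRF1 consensus were in 1 member each, CCAAT in 11, TATAAA in 3, and those of FOXO (GTAAACA) and YY1 (AAGATGGCG) in 0 of 39. The 27025 genes were not limited to the 14655 tested, whereas each member had at least 10 pooled counts. Shares among tested genes alone were not computed. Such matches are letters and do not show binding.

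Adaptors with targets in the spindle and the microtubule network included some of the steepest falls. Klhl42 (ENSMUSG00000040102), whose human protein marks the microtubule-severing enzyme katanin, was at 1.41, 1.52, 2.43 and 1.66 CPM in the CLP libraries, against 15.6, 12.6, 15.6 and 15.6 CPM in the Sham libraries. Every CLP value was far under every Sham value, with a log2 fold change of -3.08 ± 0.20 (SE; edgeR adjusted p = 2.5e-06). Klhl18 (ENSMUSG00000054792), which in human cells acts on the mitotic kinase Aurora A and in mouse photoreceptors on UNC119, was at 7.70, 6.65, 7.15 and 5.32 CPM in the CLP libraries, against 26.2, 34.3, 36.6 and 36.1 CPM in the Sham libraries. The groups were well apart, with a log2 fold change of -2.31 ± 0.16 (SE; edgeR adjusted p = 3.4e-06). Transcripts of its photoreceptor target, Unc119, averaged 7.23 ± 3.65 CPM after CLP, against 22.1 ± 3.27 CPM after sham surgery (SD, n = 4), with a log2 fold change of -1.60 ± 0.29 (SE; edgeR adjusted p = 8.5e-04). Klhl22 (ENSMUSG00000022750), whose human protein marks the kinase PLK1 and the mTORC1 brake DEPDC5, was at 4.12, 3.35, 4.17 and 3.61 CPM in the CLP libraries, against 14.2, 15.3, 15.0 and 14.5 CPM in the Sham libraries. Its libraries differed little within each group, and the measured log2 fold change came to -1.95 ± 0.13 (SE; edgeR adjusted p = 3.5e-06).

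Klhl9, Klhl13 and Klhl21 encode adaptors that in human cells direct CUL3 to Aurora B on chromosomes and the spindle midzone. Klhl9 (ENSMUSG00000070923) was at 154, 167, 175 and 172 CPM in the CLP libraries, against 293, 344, 303 and 326 CPM in the Sham libraries. All CLP libraries were near 0.5 times the Sham level, with a log2 fold change of -0.92 ± 0.10 (SE; edgeR adjusted p = 4.1e-05). A predicted gene, Gm26566, overlaps Klhl9 on the opposite strand. Its partner Klhl13 was at 14.0, 10.8, 11.2 and 8.68 CPM in the CLP libraries, against 12.4, 9.72, 7.01 and 13.8 CPM in the Sham libraries. Here the groups overlapped throughout and the gene did not pass (log2 fold change of 0.05 ± 0.22, SE, edgeR adjusted p = 0.847); its sign turned in several alternatives. Klhl21, which in cultured cells also acts on the NF-kB kinase IKK-beta, was at 14.4, 18.3, 15.7 and 21.2 CPM in the CLP libraries, against 23.7, 31.2, 24.6 and 26.8 CPM in the Sham libraries. The groups did not overlap, though the highest CLP and the lowest Sham value were close, and Klhl21 fell by 0.61 ± 0.15 on the log2 scale (SE; edgeR adjusted p = 0.00489).

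**Figure D4:**
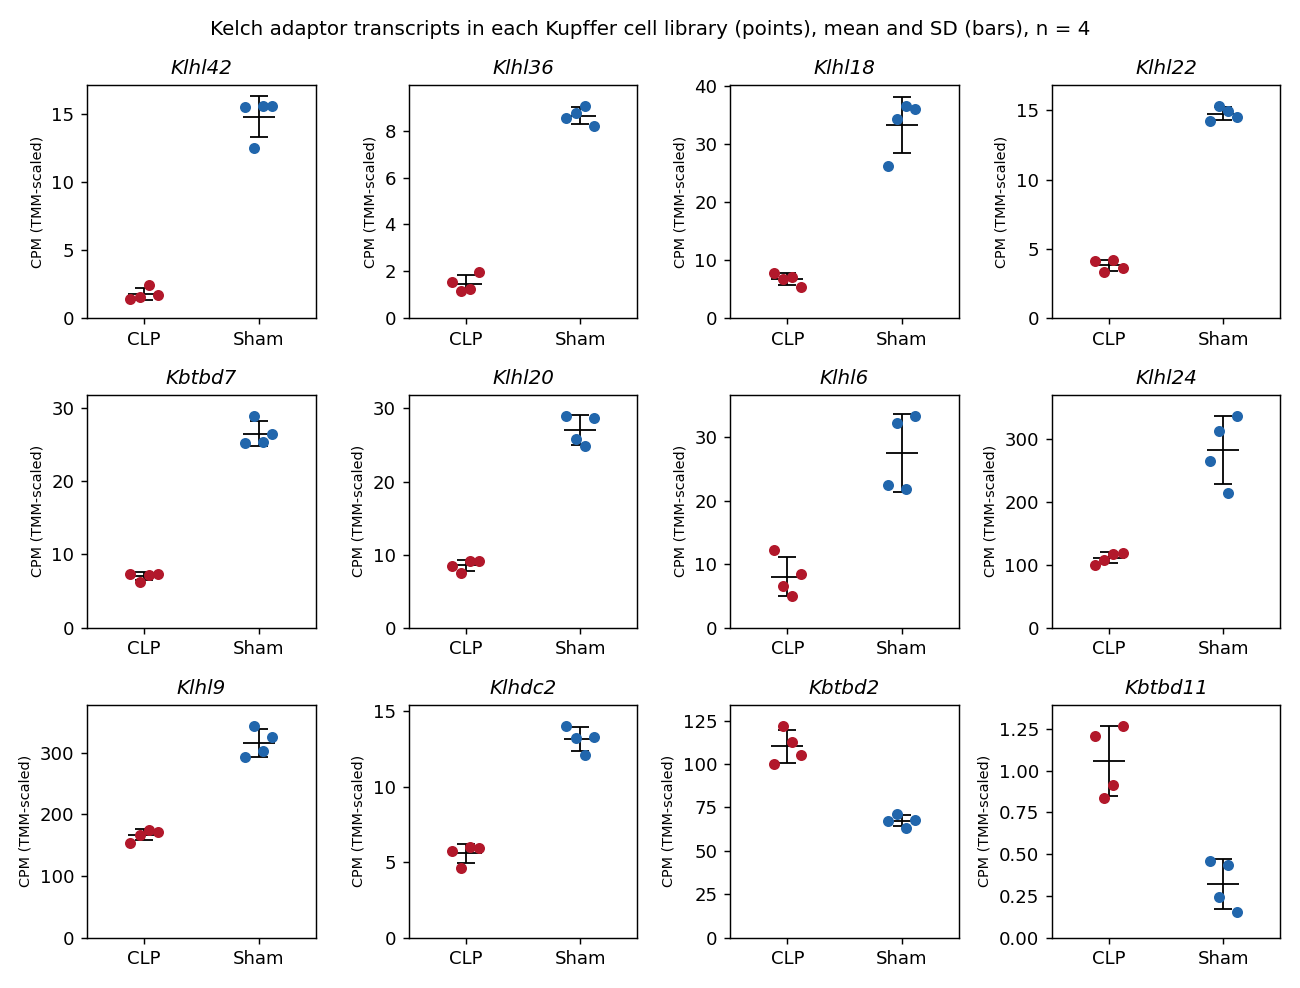
CPM (vertical axes, TMM-scaled, each from 0) of 12 kelch adaptor genes in the 4 CLP libraries (red) and the 4 Sham libraries (blue); bars are means and SD. In each panel the groups do not overlap; the CLP points lie lower in the first 10 genes, as for Klhl42 at 1.41 to 2.43 CPM in CLP and 12.6 to 15.6 CPM in Sham, and higher in Kbtbd2 and Kbtbd11.

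Among adaptors of signalling proteins, Kbtbd2 went against the family. Kbtbd2 (ENSMUSG00000059486) marks p85-alpha, the regulatory subunit of PI3 kinase, and mice without it are insulin resistant. It was at 100.1, 122, 113 and 105 CPM in the CLP libraries, against 67.3, 71.2, 63.4 and 67.8 CPM in the Sham libraries. The lowest CLP library was well over the highest Sham library, with a log2 fold change of 0.71 ± 0.10 (SE; edgeR adjusted p = 1.7e-04). With total-count scaling its value was 0.15 and did not pass (edgeR adjusted p = 0.164). Transcripts of its target, Pik3r1, stood at 1715 ± 259 CPM after CLP, against 606 ± 158 CPM after sham surgery (SD, n = 4), higher by 1.50 ± 0.21 on the log2 scale (edgeR adjusted p = 1.7e-04).

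Kbtbd6 and Kbtbd7 are neighbours on chromosome 14, and their human proteins act together on the Rac activator TIAM1, guided by the autophagy protein GABARAP. Kbtbd7 (ENSMUSG00000043881) was at 7.37, 6.28, 7.24 and 7.36 CPM in the CLP libraries, against 25.1, 28.9, 25.3 and 26.5 CPM in the Sham libraries. Its replicates lay within a narrow band in each group, with a log2 fold change of -1.90 ± 0.11 (SE; edgeR adjusted p = 1.8e-06). Kbtbd6 was at 0.166, 0.0524, 0.0916 and 0.0488 CPM in the CLP libraries, against 0.886, 0.823, 0.469 and 0.886 CPM in the Sham libraries, with 8 counts in CLP and 99 in Sham and a log2 fold change of -2.99 ± 0.46 (SE; edgeR adjusted p = 3.0e-04). It passed the filter through Sham alone. Of the 50-base words of the transcripts, 24.7% of those of Kbtbd6 were shared with Kbtbd7, and how reads were split between this pair is uncertain. The target Tiam1 stood at 11.8 ± 5.15 CPM after CLP, against 2.65 ± 0.503 CPM after sham surgery (SD, n = 4), a rise of 2.15 ± 0.32 on the log2 scale (edgeR adjusted p = 2.7e-04).

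Klhl20 (ENSMUSG00000026705), which in human cells marks the death kinase DAPK1, PML and the autophagy kinase ULK1, was at 8.45, 7.49, 9.16 and 9.07 CPM in the CLP libraries, against 28.97, 25.8, 24.9 and 28.7 CPM in the Sham libraries. Every CLP library was far under every Sham library, and the measured log2 fold change came to -1.66 ± 0.12 (SE; edgeR adjusted p = 3.9e-06). Klhl2 and Klhl3 both act on WNK kinases, which control salt transport in the kidney. Klhl2 was at 15.6, 21.7, 20.2 and 17.9 CPM in the CLP libraries, against 26.5, 32.9, 32.9 and 30.4 CPM in the Sham libraries. It fell in every CLP library relative to every Sham library, with a log2 fold change of -0.70 ± 0.13 (SE; edgeR adjusted p = 0.00106). Klhl3 was at 2.71, 2.67, 2.75 and 5.41 CPM in the CLP libraries, against 3.39, 3.35, 2.82 and 5.04 CPM in the Sham libraries. Replicate 4 was the highest library of each group, the groups overlapped, and Klhl3 did not pass (log2 fold change of -0.11 ± 0.29, SE, edgeR adjusted p = 0.763).

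Klhl12 serves Dishevelled in Wnt signalling and SEC31 in the export of collagen from the endoplasmic reticulum. It was at 4.04, 7.17, 7.10 and 8.14 CPM in the CLP libraries, against 8.62, 9.57, 9.62 and 10.1 CPM in the Sham libraries. The groups did not overlap, yet CLP replicate 1 was lower than the other CLP libraries and the gene just missed the threshold (log2 fold change of -0.52 ± 0.20, SE, edgeR adjusted p = 0.0513). Without CLP replicate 1 or CLP replicate 4 it passed as lower (edgeR adjusted p = 0.0417 and 0.0355), as it did with no filter, the GC offset, the replicate block and total-count scaling (edgeR adjusted p = 0.0303, 0.0262, 0.0338 and 1.0e-03), in 6 of 14 alternatives in all. Klhl25, whose human protein marks the translation inhibitor 4E-BP1 and the lipid enzyme ACLY, was at 12.3, 14.5, 15.1 and 10.8 CPM in the CLP libraries, against 11.8, 10.1, 9.69 and 8.77 CPM in the Sham libraries. The groups overlapped, and its log2 fold change of 0.38 ± 0.15 (SE; edgeR adjusted p = 0.0536) did not pass. It passed as higher without CLP replicate 1, CLP replicate 4 or Sham replicate 1 (edgeR adjusted p = 0.0379, 0.0288 and 0.0331). It also did so with DESeq2's size factors (edgeR adjusted p = 0.0333), with DESeq2 (adjusted p = 0.0196) and with the GC offset (edgeR adjusted p = 0.0192), while with total-count scaling its value was -0.17.

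Klhl6 (ENSMUSG00000043008) is needed for B cell receptor signalling and germinal centres in mice. It was at 12.2, 6.65, 4.99 and 8.44 CPM in the CLP libraries, against 22.5, 32.2, 21.8 and 33.4 CPM in the Sham libraries. CLP replicate 1 was the highest CLP library, and all 4 were under the Sham range, with a log2 fold change of -1.76 ± 0.26 (SE; edgeR adjusted p = 2.7e-04). The summed level of 10 B cell markers was 83.2 to 98.0 CPM in CLP and 67.1 to 78.6 CPM in Sham. Most of this sum was Cd22, with a mean of 61.0 CPM after CLP and 62.3 CPM after sham surgery. Cd22 did not pass (log2 fold change of -0.03 ± 0.10, SE, edgeR adjusted p = 0.830). Of the 10 markers, 8 rose and 1, Cd79b, fell. The risers were low, with means from 1.32 (Fcmr) to 10.5 CPM (Ighm) after CLP. Their Sham means were 0.147 (Fcmr) to 1.60 CPM (Ighm). Whether B cells contributed to the fall of Klhl6 was not tested.

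Klhl24, Kbtbd8, Kbtbd4 and Klhl15, whose known targets are structural or nuclear proteins or a phosphatase, each fell. Klhl24 (ENSMUSG00000062901), whose human protein controls keratin 14 and which is mutated in a skin fragility disease, was at 101, 107, 117 and 119.9 CPM in the CLP libraries, against 265, 314, 214 and 337 CPM in the Sham libraries. Sham libraries spread more widely than CLP libraries but stayed above them, with a log2 fold change of -1.34 ± 0.15 (SE; edgeR adjusted p = 3.9e-05). Kbtbd8, which in human and frog cells modifies the ribosome assembly factors TCOF1 and NOLC1, was at 2.46, 2.67, 3.07 and 2.73 CPM in the CLP libraries, against 7.15, 8.87, 8.25 and 8.07 CPM in the Sham libraries. Both groups were tight, and the measured log2 fold change came to -1.56 ± 0.16 (SE; edgeR adjusted p = 2.5e-05). Kbtbd4, which in human cells acts on the CoREST chromatin repressor complex, was at 2.75, 3.56, 5.77 and 3.51 CPM in the CLP libraries, against 10.7, 12.6, 9.72 and 10.4 CPM in the Sham libraries. CLP replicate 3 was the highest CLP library and remained under the Sham range, with a log2 fold change of -1.48 ± 0.22 (SE; edgeR adjusted p = 2.8e-04). Kbtbd4 overlaps the genes Ndufs3 and Ptpmt1 on the opposite strand, and the strand setting of the count is not given in the sources used here.

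Klhl15, which in human cells controls a regulatory subunit of protein phosphatase 2A and the DNA end resection factor CtIP, was at 9.86, 11.2, 10.8 and 10.9 CPM in the CLP libraries, against 18.1, 19.2, 16.2 and 15.9 CPM in the Sham libraries. All CLP libraries lay under the lowest Sham library, with a log2 fold change of -0.70 ± 0.12 (SE; edgeR adjusted p = 5.7e-04). Of the substrates, Rbbp8, which encodes CtIP, stood at 152 ± 17.9 CPM after CLP, against 88.0 ± 7.84 CPM after sham surgery (SD, n = 4), with a log2 fold change of 0.78 ± 0.12 (SE; edgeR adjusted p = 2.7e-04). The CoREST gene Rcor1 stood at 22.8 ± 1.20 CPM after CLP, against 44.0 ± 6.73 CPM after sham surgery, with a log2 fold change of -0.95 ± 0.12 (SE; edgeR adjusted p = 9.8e-05). With total-count scaling the rise of Rbbp8 was 0.23 (edgeR adjusted p = 0.11) and the value of Rcor1 was -1.51.

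Some Klhdc proteins are receptors that read the last residues of other proteins, as known from human cells. Klhdc2, Klhdc3 and Klhdc10 do so with CUL2, and Klhdc1 has been tied to cullin-5. Klhdc1 (ENSMUSG00000051890) was at 0.707, 0.471, 0.275 and 0.341 CPM in the CLP libraries, against 2.78, 3.87, 3.92 and 3.61 CPM in the Sham libraries. Among the Klhdc genes tested its fall was the steepest, with a log2 fold change of -2.96 ± 0.31 (SE; edgeR adjusted p = 3.0e-05), and only CLP replicate 1 reached the filter level (set on total counts) in CLP. Its neighbour on chromosome 12, Klhdc2, was at 5.74, 4.61, 6.00 and 5.95 CPM in the CLP libraries, against 14.0, 13.2, 12.1 and 13.3 CPM in the Sham libraries. The libraries of each group lay close together, with a log2 fold change of -1.24 ± 0.14 (SE; edgeR adjusted p = 4.1e-05). The abundant Klhdc3 was at 35.0, 30.8, 37.3 and 29.3 CPM in the CLP libraries, against 51.3, 51.7, 47.5 and 47.4 CPM in the Sham libraries. It was lower in CLP without overlap (log2 fold change of -0.58 ± 0.11, SE, edgeR adjusted p = 9.4e-04). Klhdc10 was at 32.9, 24.5, 23.8 and 25.02 CPM in the CLP libraries, against 40.2, 44.0, 39.6 and 41.4 CPM in the Sham libraries. CLP replicate 1 stood above the other CLP libraries and under all Sham libraries, with a log2 fold change of -0.64 ± 0.12 (SE; edgeR adjusted p = 0.00122). Klhdc2 overlaps Nemf and Klhdc3 overlaps Mea1 on the opposite strand.

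For several members no target is named here. Klhl36 (ENSMUSG00000031828) was at 1.54, 1.15, 1.24 and 1.95 CPM in the CLP libraries, against 8.56, 8.78, 9.05 and 8.19 CPM in the Sham libraries. The groups were far apart and each was tight, with a log2 fold change of -2.55 ± 0.20 (SE; edgeR adjusted p = 5.9e-06). Klhl38 was at 1.12, 0.628, 0.687 and 0.439 CPM in the CLP libraries, against 3.64, 4.78, 1.68 and 7.24 CPM in the Sham libraries. Sham libraries varied widely, with replicate 3 lowest and replicate 4 highest, and the measured log2 fold change came to -2.57 ± 0.46 (SE; edgeR adjusted p = 8.2e-04). Klhl5 was at 60.8, 44.7, 44.8 and 35.7 CPM in the CLP libraries, against 74.3, 75.9, 64.9 and 72.3 CPM in the Sham libraries. CLP replicate 1 was the highest CLP library, and the groups stayed apart, with a log2 fold change of -0.63 ± 0.15 (SE; edgeR adjusted p = 0.00478). A further 7 members fell, Kbtbd3, Klhl8, Klhl11, Klhl26, Klhl28, Klhl29 and Klhl35, with log2 fold changes of -1.54 to -0.46. Of these, Klhl35, which reached the filter level in Sham libraries alone, lost its call without CLP replicate 3 or Sham replicate 2 (edgeR adjusted p = 0.0663 and 0.0686). Klhl29, the only one of them whose groups overlapped, lost it without CLP replicate 2, 3 or 4 or Sham replicate 2, 3 or 4, with an edgeR adjusted p of 0.0527 to 0.0659.

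The rises besides Kbtbd2 were in genes of low or middle level. Kbtbd11 was at 1.21, 0.838, 0.916 and 1.27 CPM in the CLP libraries, against 0.458, 0.244, 0.436 and 0.153 CPM in the Sham libraries. The groups were apart although both were near 1 CPM or less, with a log2 fold change of 1.71 ± 0.38 (SE; edgeR adjusted p = 0.00305). All 4 CLP and 2 Sham libraries reached the filter level, and the same was true of Klhl4. Klhl4 was at 0.666, 0.628, 0.870 and 0.878 CPM in the CLP libraries, against 0.397, 0.244, 0.402 and 0.306 CPM in the Sham libraries. No CLP library overlapped a Sham library (log2 fold change of 1.17 ± 0.31, SE, edgeR adjusted p = 0.00871), but with total-count scaling the value was 0.62 and did not pass (edgeR adjusted p = 0.11). Klhdc4 was at 14.5, 16.8, 17.3 and 19.8 CPM in the CLP libraries, against 13.5, 12.5, 14.5 and 12.4 CPM in the Sham libraries. The lowest CLP and the highest Sham library nearly met, and the log2 fold change of 0.37 ± 0.13 (SE; edgeR adjusted p = 0.0298) did not pass without CLP replicate 2, 3 or 4 or Sham replicate 2 or 4 (edgeR adjusted p = 0.052, 0.058, 0.0834, 0.07 and 0.0751) and turned to -0.19 with total-count scaling. Klhdc7a, Klhdc8b, Klhl7 and Klhl23 did not pass, with log2 fold changes of 0.75 ± 0.34, 0.10 ± 0.42, -0.03 ± 0.15 and -0.46 ± 0.33 (SE) in that order. Klhdc8b, with 320 counts, overlaps Ccdc71 on the opposite strand, which had 1272 counts in CLP and 2740 in Sham. Klhl7, the most abundant of these, was at 11.4 to 16.0 CPM in CLP and 12.6 to 15.4 CPM in Sham.

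The 8 members left out by the filter had 12 to 92 pooled counts. They include genes known from other tissues, the spermatid gene Klhl10 and the muscle gene Klhl41. Klhl10 had 2 counts in CLP and 16 in Sham, Klhl33 2 in CLP and 19 in Sham, Klhl32 12 in CLP and 41 in Sham, and Klhdc8a 9 in CLP and 12 in Sham. Klhl41 had 60 counts in CLP and 32 in Sham, Klhdc7b 13 in CLP and 7 in Sham, and Klhl14 10 in CLP and 2 in Sham. For Klhl30, with 21 counts in CLP and 1 in Sham, the scaled ratio was 31.5, with an exact 95% interval of 5.06 to 1302 that covers counting error only. It and Klhl41 passed as higher when no filter was used (edgeR adjusted p = 0.005 and 0.043). No count of Klhl30 came from CLP replicate 1.

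Of 22 genes of the CUL3 core and neddylation tested, the ligase parts that these adaptors plug into, 5 fell and 6 rose (median log2 fold change 0.08). These shares, 22.7% and 27.3%, were close to the 29.5% and 24.9% of all genes tested. With total-count scaling 16 fell and 2 rose, where 56.6% and 11.7% of all genes did. Cul3 itself stood at 160.4 ± 2.95 CPM after CLP, against 102 ± 7.74 CPM after sham surgery (SD, n = 4), with a log2 fold change of 0.65 ± 0.10 (SE; edgeR adjusted p = 2.3e-04), or 0.10 with total-count scaling (edgeR adjusted p = 0.327). Genes for the DCUN1D proteins, which help attach NEDD8 to cullins, were split. Dcun1d3 was at 48.4, 83.4, 60.4 and 62.7 CPM in the CLP libraries, against 19.8, 18.6, 20.9 and 19.5 CPM in the Sham libraries, higher by 1.69 ± 0.15 on the log2 scale. Dcun1d5 rose by 1.01 ± 0.10, and Dcun1d2 and Dcun1d4 had log2 fold changes of -1.69 ± 0.19 and -1.56 ± 0.13 (edgeR adjusted p = 3.7e-05 and 8.7e-06). The other fallers were Senp8, the NEDD8 protease, at -1.90 ± 0.24, and the COP9 signalosome genes Cops7b and Cops7a, at -1.35 ± 0.23 and -0.66 ± 0.12. Of 4 genes of the CUL2 core tested, Eloc rose (log2 fold change of 1.26 ± 0.11, SE, edgeR adjusted p = 8.1e-06), and Cul2 was at 30.1 ± 1.38 CPM after CLP, against 30.7 ± 2.36 CPM after sham surgery.

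**Figure D5:**
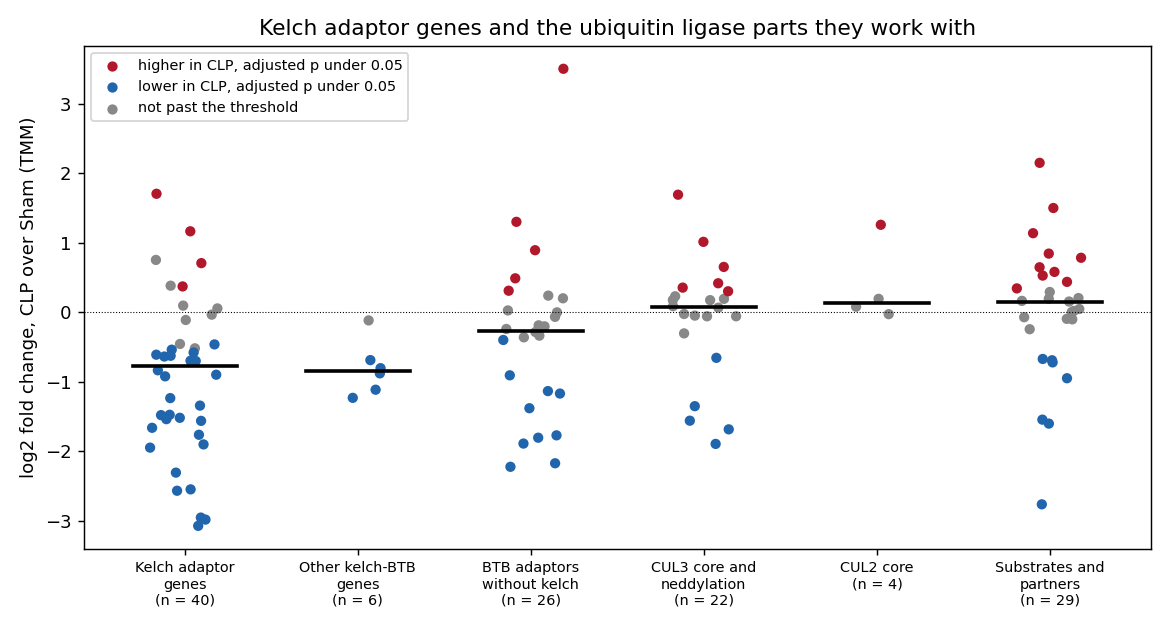
Log2 fold change of CLP over Sham (vertical axis, TMM scaling) of each gene tested in the kelch adaptor family and in 5 lists of related genes; black bars are medians, red and blue points passed an edgeR adjusted p of 0.05. The family and the other kelch-BTB genes lie mostly below 0, with medians of -0.77 and -0.84, and the CUL3 core, the CUL2 core and the substrates have medians of 0.08, 0.14 and 0.15.

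Kelch-BTB genes with other symbols fell in 5 of 6 cases, and 0 rose at this threshold (median log2 fold change -0.84), against 29.5% and 24.9% of all genes tested. Keap1, the NRF2 inhibitor, stood at 30.8 ± 7.81 CPM after CLP, against 53.8 ± 5.14 CPM after sham surgery (SD, n = 4), with a log2 fold change of -0.81 ± 0.17 (SE; edgeR adjusted p = 0.00227). Ivns1abp, which binds an influenza virus protein, stood at 102 ± 19.5 CPM after CLP, against 187 ± 12.2 CPM after sham surgery, with a log2 fold change of -0.88 ± 0.14 (SE; edgeR adjusted p = 3.8e-04). Lztr1, an adaptor for RAS proteins, had a log2 fold change of -1.12 ± 0.16 (SE; edgeR adjusted p = 2.3e-04), Ipp one of -1.23 ± 0.27 and Enc1 one of -0.69 ± 0.23. These 5 were also negative under total-count scaling. That scaling moved the median of all genes from -0.04 to -0.60, so a negative sign there was all but fixed beforehand. Enc1 lost its call without CLP replicate 1, 2 or 4 (edgeR adjusted p = 0.0502, 0.0641 and 0.0643) or Sham replicate 2, 3 or 4 (edgeR adjusted p = 0.0769, 0.0695 and 0.0652), leaving 4 of 6.

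Of 26 BTB adaptors without kelch repeats tested, 10 fell and 5 rose (median log2 fold change -0.26), which is 38.5% and 19.2%, against 29.5% and 24.9% of all genes tested. With total-count scaling 21 fell and 2 rose, where 56.6% and 11.7% of all genes did. Abtb2 was at 67.8, 108, 83.8 and 64.5 CPM in the CLP libraries, against 12.3, 5.18, 6.14 and 4.86 CPM in the Sham libraries, a rise without overlap (log2 fold change of 3.51 ± 0.31, SE, edgeR adjusted p = 1.2e-05). The other risers were Kctd10 (0.89 ± 0.11), Kctd6 (1.30 ± 0.34), Kctd9 (0.49 ± 0.16) and Kctd20 (0.31 ± 0.10), of which Kctd9 and Kctd20 turned to -0.07 and -0.25 with total-count scaling. The 5 rises became 3 without Sham replicate 2, where Kctd9 and Kctd20 missed the threshold (edgeR adjusted p = 0.0501 and 0.0618), and 2 with no filter, where Kctd6 missed it too (edgeR adjusted p = 0.0666). Rhobtb2, whose protein binds CUL3, and Btbd3 had the smallest p among the fallers, with log2 fold changes of -1.89 ± 0.13 and -2.23 ± 0.18 (edgeR adjusted p = 3.5e-06 and 7.1e-06).

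Of 29 substrates and partners of kelch adaptors tested, 7 fell and 10 rose (median log2 fold change 0.15), which is 24.1% and 34.5%, against 29.5% and 24.9% of all genes tested. With total-count scaling 17 fell and 4 rose, where 56.6% and 11.7% of all genes did. Besides Pik3r1 and Tiam1, Nfe2l2, which encodes NRF2, stood at 464 ± 109.7 CPM after CLP, against 211 ± 49.9 CPM after sham surgery (SD, n = 4), with a log2 fold change of 1.14 ± 0.20 (SE; edgeR adjusted p = 7.4e-04). Gabarap and Gabarapl1 rose by 0.65 ± 0.10 and 0.84 ± 0.13 on the log2 scale, or by 0.10 and 0.29 with total-count scaling, where Gabarap did not pass (edgeR adjusted p = 0.386). The katanin gene Katna1, target of the Klhl42 protein, stood at 32.2 ± 2.37 CPM after CLP, against 23.8 ± 2.66 CPM after sham surgery, with a log2 fold change of 0.44 ± 0.11 (SE; edgeR adjusted p = 0.00703), or -0.11 with total-count scaling (edgeR adjusted p = 0.372). Ikbkb, which encodes IKK-beta, stood at 149 ± 12.04 CPM after CLP, against 104 ± 7.54 CPM after sham surgery, with a log2 fold change of 0.53 ± 0.10 (SE; edgeR adjusted p = 0.00151), or -0.03 with total-count scaling. The mitotic kinase gene Plk1 was low and fell, at 0.953 ± 0.511 CPM after CLP, against 6.58 ± 3.61 CPM after sham surgery (edgeR adjusted p = 6.4e-04). The Aurora B gene Aurkb averaged 2.55 ± 1.60 CPM after CLP, against 7.49 ± 3.43 CPM after sham surgery and fell too, with overlap between the groups (edgeR adjusted p = 0.0204). Ulk1, a Klhl20 target, had a log2 fold change of -0.69 ± 0.12 (SE; edgeR adjusted p = 8.2e-04).

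Members that lie next to each other in the genome included pairs that both fell, where 70.0% of all members tested fell. With no protein-coding gene between them in the annotation, these were Klhdc1 and Klhdc2 on chromosome 12, Kbtbd7 and Kbtbd6 on chromosome 14, and Klhl6 and Klhl24 on chromosome 16. Klhl10 and Klhl11 on chromosome 11 are also adjacent, and Klhl10 was not tested. Whether neighbours moved together more often than other members was not examined.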

How the data were processed

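RNA from sorted Kupffer cells was isolated with the Aurum kit, made into TruSeq stranded libraries and sequenced on an Element AVITI, per the labels' protocols. The deposited values are raw read counts for 55414 Ensembl genes in 8 libraries. FastQC, STAR 2.7.10b, featureCounts, DESeq2 and mm39 are named in the submitters' processing notes. The sources used here do not state their settings or the strand of counting.

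Symbols, exon lengths and GC content came from GENCODE M21 (GRCm38), which named 52081 rows holding 99.8% of the counts, so symbols are older ones. Counts were filtered with filterByExpr, TMM-scaled and tested with edgeR 4.0.16 (robust quasi-likelihood F-test, design with surgery alone; R 4.3.3), with Benjamini-Hochberg adjustment over 14655 genes. CPM uses TMM-scaled totals of the tested genes. The SE was taken approximately, dividing the absolute log2 fold change by the square root of F. Alternatives were DESeq2 1.42.0, DESeq2's size factors, total-count scaling, no count filter (1 count in all), a GC spline offset with 5 degrees of freedom, a replicate block and leaving out each library.

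Values in every library are given for the 10 largest called changes with at least 1 CPM in the higher group, the 6 most abundant members and 22 members with a known partner, 27 in all. The lists give their 3 smallest p-values and each called gene where 5 or fewer were called; further substrates, Kbtbd2's companions in rising and the genes shown as promoters were named after their values were seen. The members, lists and motifs were chosen with earlier results of these data known. In simulated data edgeR recovered 8, 31, 47 and 50 of 50 genes changed 1.5, 2, 4 and 8-fold among 14655, with 6 false calls among 142. The simulation changed only those genes, as many up as down. In the data 54.3% of genes were called, so the simulated rates may not hold there.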

Additional observations from a re-analysis of the deposited data

Results flagged for a closer look

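Of 80 groups of 4 libraries, 2 for each member tested, 6 held a library whose distance to the nearest of the others was above the 95% limit of Dixon's test for 4 samples, and chance flags about 1 group in 20. In the CLP group, Klhl3 was at 5.41 CPM in replicate 4 and at 2.67 to 2.75 CPM in the other libraries, Kbtbd7 at 6.28 CPM in replicate 2 and at 7.24 to 7.37 CPM in the others, and Klhdc10 at 32.9 CPM in replicate 1 and at 23.8 to 25.02 CPM in the others. In the Sham group, Klhl42 was at 12.6 CPM in replicate 2 and at 15.6 CPM in each of the others, Kbtbd6 at 0.469 CPM in replicate 3 and at 0.823 to 0.886 CPM in the others, and Klhl29 at 2.08 CPM in replicate 1 and at 3.33 to 3.44 CPM in the others. The calls of Kbtbd7, Klhdc10, Klhl42 and Kbtbd6 held without the library named, and Klhl29 had a log2 fold change of -0.96 without Sham replicate 1 (edgeR adjusted p = 0.0141). Klhl3 was not called with or without CLP replicate 4 (edgeR adjusted p = 0.763 and 0.188).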

How the results depend on the processing

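The number of members called stayed within 1.5 times of 32 under every alternative run, at 29 to 34 when 1 library was left out and 31 with the replicate block (3 higher, 28 lower; 7794 of all genes called). Deviations of same-numbered libraries from their group means were weakly correlated (r = 0.17, -0.12, 0.13 and -0.09). With 4 libraries a group, such values cannot show whether the numbers pair them. Total-count scaling moved most, with 1715 genes higher and 8292 lower. With it 1 member was higher, and of 40 members 31 changed at least 2-fold and 30 were lower by that much. Of all 14655 genes tested, 10007 were then called, 4674 of them at least 2-fold lower and 1044 at least 2-fold higher. Genes called were 18 of 22 in the CUL3 core, 4 of 4 in the CUL2 core and 23 of 26 in the BTB adaptors without kelch repeats. The CUL2 core also had 2 calls with DESeq2's size factors and with DESeq2. The sign turned under total-count scaling for Klhdc4 (-0.19), Klhdc8b (-0.45), Klhl13 (-0.49) and Klhl25 (-0.17); with the replicate block for Klhdc8b (-0.047); with no filter for Klhl13 (-0.00014); and with DESeq2's size factors and DESeq2 for Klhl7 (0.0258 and 0.0258). With 1 library left out, Klhdc8b ranged over -0.34 to 0.34, Klhl13 over -0.10 to 0.21, Klhl3 over -0.42 to 0.090 and Klhl7 over -0.12 to 0.048. The causes were not tested. The replicate block also ended the calls of Klhdc4 and Klhl29 (edgeR adjusted p = 0.0637 and 0.0548) and made one for Klhl12 (0.0338). The GC offset left 28 of the 28 falls and 4 of the 4 rises called. Non-overlap was computed for TMM, total counts, DESeq2's size factors and left-out libraries alone. Depth limits members under about 1 CPM.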
